A study of Caenorhabditis elegans with 12 samples.

Results

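The genes described here are 10 *C. elegans* genes that build the junctions of the embryonic epidermis or drive the elongation of the embryo: *hmr-1*, *hmp-1*, *hmp-2*, *ajm-1*, *dlg-1*, *let-413*, *vab-10*, *let-805*, *sma-1* and *let-502*. They were picked by name from the 45410 rows of each count file, for their known roles. The rule uses no measured value, but earlier results of these data were known when the genes were chosen. Mid-embryo RNA of wild-type N2 and of mutants of *set-2* was sequenced. This gene encodes a methyltransferase of lysine 4 of histone H3, and the question was how its loss changes transcription. Experiment 1 compared *set-2(tm1630)*, a deletion at the 5′ end of the gene that takes away the start codon, with N2, and the separate experiment 2 compared *set-2(zr2012)*, a single amino-acid substitution in the catalytic SET domain, with its own N2. Each of the 4 groups had 3 libraries, described as independent preparations made in parallel for mutant and N2. No other allele or agent is named for any group. Each library came from pooled whole embryos that had been kept for 4 h at 20°C after bleaching of hermaphrodites, when most had reached the comma stage, so that all tissues contributed to each value.

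The comma stage is when the worm embryo starts to elongate. Its epidermal cells are joined by an apical junction made of a cadherin-catenin complex and, just below it, a complex of DLG-1 and AJM-1, while hemidesmosome-like attachments tie the epidermis through to the muscle and to the cuticle. Actomyosin contraction squeezes the epidermis around its circumference, and the junctions, the spectrin network under the apical membrane and the attachments to muscle turn that force into a longer and thinner body.

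The symbol rows of 3 of the 10 genes held 500 or more reads in every library: *vab-10* (6262 to 111742 reads), *dlg-1* (601 to 7840) and *let-502* (2856 to 17377). The other 7 had at most 13 reads in any library. *hmr-1*, *hmp-1*, *hmp-2*, *ajm-1* and *sma-1* were listed at 0 in all 12 libraries, *let-805* had 2 reads in total and *let-413* had 77. These zeros do not show that the genes were silent. The files also hold 3837 rows named by a RefSeq transcript accession, and 11 of those rows belong to 7 of the 10 genes by the RefSeq gene table: *hmr-1*, *hmp-1*, *hmp-2*, *dlg-1*, *let-413*, *let-805* and *sma-1*. Over the 12 libraries the *hmr-1* accession rows held 42985 reads, those of *let-805* 36264, that of *let-413* 4556 and that of *sma-1* 1533. The *dlg-1* accession row held 286094 reads, beside 29477 under the gene symbol.

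*ajm-1*, whose protein is the partner of DLG-1 in the lower junctional complex, had no accession row matched to it, so that its level was not measured here. *vab-10* and *let-502* had none either, and all their reads stood under the symbol. Of 1688 protein-coding genes with an accession row, 1181 (70.0%) had no read under their symbol in any library, against 529 of 15381 (3.44%) without one. The share was 31.9% among genes with 2 or more RefSeq transcripts and 3.15% among those with 1, and *ajm-1* has 13 transcripts in that table. How reads shared by several rows were assigned is not given in the sources used here, and its part in the zeros was not tested. An accession row holds the reads given to that transcript name and need not stand for all the RNA of its gene. Its use was decided after the counts had been seen.

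**Figure D1:**
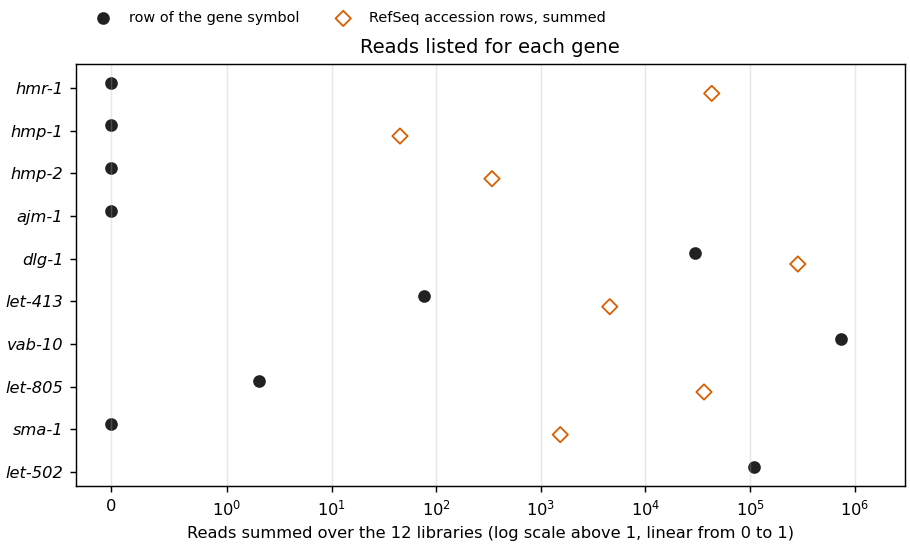
Reads summed over the 12 libraries for each of the 10 genes (log scale above 1, linear from 0 to 1). Filled points are the row of the gene symbol and open diamonds the summed RefSeq accession rows. Symbol rows of 5 genes sit at 0, while *hmr-1* and *let-805* have 42985 and 36264 reads under accessions.

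Library totals ran from 14651380 to 53080992 counts. Replicates were close in both mutants (Pearson r of log2 CPM, read counts scaled for depth with TMM factors, 0.985 to 0.995 across genes in *tm1630* and 0.996 to 0.998 in *zr2012*). N2 libraries were less alike, with 0.896 to 0.937 in experiment 1 and 0.953 to 0.998 in experiment 2, where replicate 3 stood apart from the other 2. Those 2 were almost as close as repeat counts of 1 library would be (chi-square of 2.34 per degree of freedom). The *zr2012* tests count them as separate libraries. The *set-2* row itself had 116, 12 and 97 reads in the libraries labelled *tm1630*, against 1, 11 and 44 in N2 (log2 fold change 2.48, SE 0.86, adjusted p = 0.0589), so that it did not check their labels. Directions given for *tm1630* rest on the labels as deposited. Marker genes were read under their names only, without accession rows, so that a 0 does not show that a marker was silent. The summed level of 10 germ line, oocyte and early embryo marker genes was 696 to 864 CPM in the *tm1630* libraries and 40.0 to 122 CPM in N2, with 7 of 8 tested genes higher and *pgl-1* and *pie-1* at 0. The summed level of 5 epidermal markers was 123 to 173 CPM in *tm1630* and 245 to 584 CPM in N2, with 1 of 3 tested genes lower and *elt-1* and *elt-3* at 0. Muscle markers were at 1577 to 1794 CPM in *tm1630* and 3094 to 5042 CPM in N2 (4 of 5 tested genes lower, *unc-15* and *lev-11* at 0). Neuronal (562 to 621 against 750 to 1355 CPM), intestinal (596 to 628 against 626 to 1691 CPM) and pharyngeal markers (291 to 429 against 566 to 865 CPM) had 4 of 8, 1 of 4 and 1 of 2 tested genes lower in *tm1630*, with *egl-3*, *unc-119*, *elt-7*, *pha-4* and *ceh-22* at 0. Over all genes tested, 16.0% were called lower and 14.4% higher in *tm1630*, and the marker counts are to be read against these shares. These marker shifts were between the same libraries as every *tm1630* comparison given here, and their part in its results was not tested. In *zr2012* the ranges overlapped those of N2 for germ line markers (161 to 185 against 106 to 479 CPM), epidermal markers (572 to 598 against 542 to 586 CPM) and muscle markers (7076 to 8439 against 4953 to 8378 CPM). Single markers still differed there, where 4.74% of all genes tested were called lower and 5.71% higher. Of the 3 epidermal markers tested 1 was lower (*lin-26*) and 1 higher (*grh-1*), and of the 5 muscle markers tested 1 was lower (*unc-120*, log2 fold change -0.94, adjusted p = 0.00826).

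The attachment gene *vab-10* and both accession rows of the attachment gene *let-805* were called lower in *set-2(tm1630)* mid-embryos. *vab-10* encodes the spectraplakin of the epidermal hemidesmosomes, a large linker between the attachment and the cytoskeleton. The gene has 14 RefSeq transcripts, which its symbol row does not tell apart. It measured 307, 422 and 338 CPM in the libraries labelled *tm1630*, against 579, 1811 and 2066 CPM in N2. All mutant libraries lay below all N2 libraries, but N2 replicate 1 was much nearer to the mutants than the other N2 libraries were. The mean was 356 ± 59.5 CPM in *tm1630* and 1485 ± 795 CPM in N2 (SD, n = 3 each), a 4.17-fold lower level. The log2 fold change was -2.06 (SE 0.53, adjusted p = 0.0240 by the quasi-likelihood test of edgeR, adjusted by Benjamini-Hochberg over all genes tested). Among all 16332 genes tested, 30.4% were called in this comparison, 16.0% lower and 14.4% higher, so that a lower gene was common, and 24.6% were lower without overlap. In whole embryos, a different mix of cells or of embryo stages and less RNA per cell cannot be told apart. The germ line, oocyte and early embryo markers given above were higher in *tm1630*, and markers of other tissues shifted too. Their part in the *vab-10* change was not tested.

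The *vab-10* change kept its direction in each fit that left out 1 library, from -2.45 to -1.75 on the log2 scale, but its call did not hold in all of them. The adjusted p was 0.0655 without N2 replicate 2 and 0.120, 0.0860 and 0.107 without *tm1630* replicate 1, 2 or 3. Leaving out any *tm1630* library also lowered the number of genes called over the whole table, which was 747, 938 and 916 without *tm1630* replicate 1, 2 or 3 and 4961 with all libraries.

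*let-805* encodes myotactin, the transmembrane receptor that holds the epidermis to the muscle. Its main accession row, NM_001027470, measured 10.3, 21.2 and 16.2 CPM in *tm1630* and 50.8, 101 and 50.6 CPM in N2. The groups did not overlap, and N2 replicate 2 was the highest. The level was 4.26-fold lower in *tm1630* (log2 fold change -2.09, SE 0.42, adjusted p = 0.0120). The second row, NM_001027469, had 7, 11 and 16 reads in *tm1630* and 34, 154 and 100 in N2. It was 5.52-fold lower on the CPM scale (log2 fold change -2.46, SE 0.65, adjusted p = 0.0260), and its groups did not overlap either. The call of the main row was lost without *tm1630* replicate 1 or 3 (adjusted p = 0.0670 and 0.0600). That of the second row was lost without N2 replicate 2 or any *tm1630* replicate (adjusted p = 0.0668 to 0.117).

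In *set-2(zr2012)* neither attachment gene passed the test. *vab-10* measured 3296, 3143 and 3268 CPM in *zr2012*, against 2569, 2704 and 2668 CPM in N2. Every mutant library was above every N2 library, by a small margin that did not pass the test (log2 fold change 0.29, SE 0.086, adjusted p = 0.0801). Among all genes tested in this experiment, 18.9% were higher without overlap. The DESeq2 Wald test called *vab-10* higher (0.31, adjusted p = 0.00819), and edgeR did so without N2 replicate 3 (0.30, adjusted p = 0.00126). The main *let-805* row measured 136, 130 and 140 CPM in *zr2012* and 167, 174 and 120 CPM in N2. N2 replicate 3 lay below all mutant libraries and the other N2 libraries above them, and the log2 fold change was -0.19 (SE 0.15, adjusted p = 0.443). Without N2 replicate 3 it was -0.34 (adjusted p = 7.59e-04), in a fit that rests on N2 replicates 1 and 2. Those replicates were almost as close as repeat counts of 1 library would be (chi-square of 2.34 per degree of freedom), and that fit called 10468 genes over the whole table. The second *let-805* row had 252, 285 and 248 reads in *zr2012* and 462, 350 and 303 in N2, or 10.8, 9.27 and 9.09 CPM against 15.5, 15.2 and 7.27 CPM. It overlapped in the same way (log2 fold change -0.38, SE 0.30, adjusted p = 0.427) and was called lower without N2 replicate 3 (-0.67, adjusted p = 2.20e-04).

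**Figure D2:**
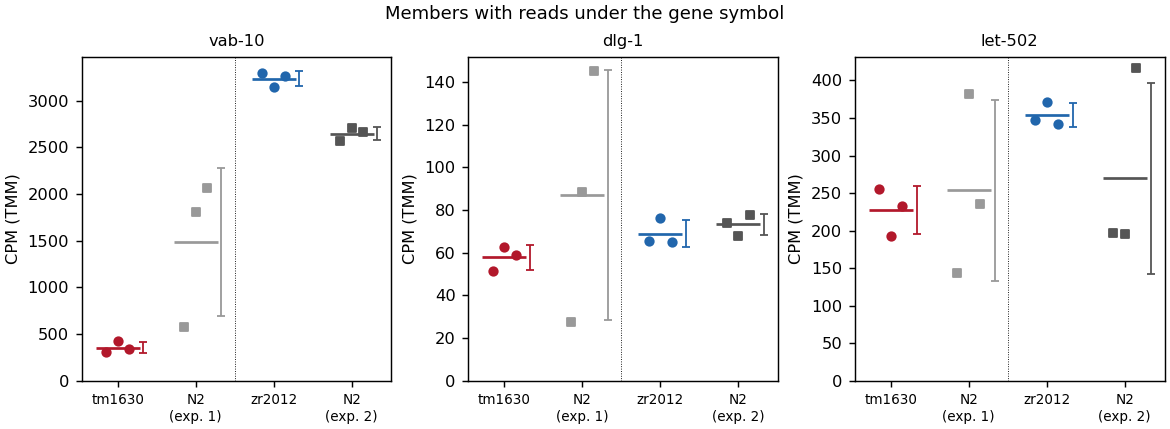
Level in CPM (TMM scaling within each experiment) of the 3 genes with reads under their symbol, per library, with the group mean (line) and SD (bar at the right of each group, n = 3). *vab-10* lies at 307 to 422 CPM in *tm1630*, below all N2 libraries of experiment 1, while *dlg-1* and *let-502* overlap.

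An accession row of the cadherin gene of the upper junctional complex was called lower in *tm1630* as well. *hmr-1* encodes the classical cadherin that joins neighbouring epidermal cells. Its accession row NM_001026479 measured 9.65, 9.31 and 10.05 CPM in *tm1630*, against 21.2, 146 and 116 CPM in N2. The mutant libraries were almost equal, with an SD of 0.370 CPM, and all lay below N2, where replicate 1 was far below the other 2. The level was 9.79-fold lower in *tm1630* (log2 fold change -3.29, SE 0.65, adjusted p = 0.0114). The call was lost without *tm1630* replicate 1, 2 or 3 (adjusted p = 0.0603, 0.0614 and 0.0533), while the change stayed between -3.77 and -2.84 over the 6 fits that left out 1 library.

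In *zr2012* the same *hmr-1* row measured 240, 239 and 235 CPM, against 68.7, 73.9 and 158 CPM in N2. All mutant libraries were higher than all N2 libraries, and N2 replicate 3 was the nearest to them. The 2.37-fold higher level did not pass the edgeR test (log2 fold change 1.25, SE 0.32, adjusted p = 0.0580). It passed in the DESeq2 Wald test (1.26, adjusted p = 0.00398) and in edgeR without N2 replicate 3 (1.74, adjusted p = 6.40e-09). That edgeR fit rests on N2 replicates 1 and 2, which were almost as close as repeat counts. It called 10468 genes over the whole table. The worm makes an epithelial and a longer neuronal form of HMR-1, and the table does not say which one the row stands for. The other *hmr-1* accession row, NM_001264632, was listed at 0 in all libraries.

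The catenins, which link HMR-1 to actin, were barely measured. *hmp-1*, the gene of α-catenin, had 45 reads over its 3 accession rows and the 12 libraries, too few for a test. *hmp-2*, the gene of β-catenin, had 51, 16 and 22 reads in *tm1630* and 6, 35 and 134 in N2 under NM_001265496. The groups overlapped, with N2 libraries both below and above the mutants (log2 fold change -0.28, SE 0.74, adjusted p = 0.791). It had 14, 14 and 13 reads in *zr2012* and 15, 9 and 12 in N2, again overlapping (0.38, SE 0.32, adjusted p = 0.451).

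*dlg-1* and *let-413*, the testable genes of the lower junctional complex and of its placement, did not pass the test in either allele. *dlg-1* encodes the Discs large scaffold protein that gathers AJM-1 at the junction. Its symbol row measured 51.5, 62.6 and 59.1 CPM in *tm1630* and 27.5, 88.6 and 145 CPM in N2. The mutant libraries lay inside the wide range of N2 (log2 fold change -0.59, SE 0.52, adjusted p = 0.402). Without N2 replicate 1, the lowest, *dlg-1* was called lower (-1.02, adjusted p = 0.0316). In *zr2012* it measured 65.3, 76.1 and 65.1 CPM, against 73.9, 68.0 and 77.8 CPM in N2, a difference well inside the spread (-0.090, SE 0.11, adjusted p = 0.611).

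The *dlg-1* accession row, NM_001029260, held most of the gene's reads. It measured 667, 393 and 564 CPM in *tm1630* and 161, 719 and 1518 CPM in N2, with the mutants again inside the N2 range (log2 fold change -0.56, SE 0.70, adjusted p = 0.553). Without N2 replicate 3 the sign turned (0.30, adjusted p = 0.706). In *zr2012* the row measured 751, 836 and 746 CPM, against 542, 549 and 708 CPM in N2, without overlap but short of the threshold (0.38, SE 0.13, adjusted p = 0.119). Without N2 replicate 3 it was called higher (0.51, adjusted p = 5.06e-05), in the fit that rests on N2 replicates 1 and 2 and called 10468 genes.

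*let-413* encodes the Scribble homologue, a basolateral protein needed to bring the junction together. Its accession row NM_001028680 measured 8.79, 5.33 and 9.85 CPM in *tm1630* and 5.45, 11.6 and 15.4 CPM in N2, with overlap (log2 fold change -0.44, SE 0.46, adjusted p = 0.487). It measured 11.5, 12.5 and 10.1 CPM in *zr2012* and 13.9, 13.1 and 18.04 CPM in N2. There the mutant libraries were all lower, by less than the test required (-0.40, SE 0.18, adjusted p = 0.189), and 18.1% of all genes tested were lower without overlap.

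Of the genes that work on the cytoskeleton during elongation, the *sma-1* row was called lower in *tm1630* and *let-502* did not pass the test. Their changes were not tested against each other. *sma-1* encodes the β heavy spectrin of the apical membrane. Its accession row NM_171544 had few reads, 28, 8 and 13 in *tm1630* and 14, 112 and 708 in N2. On the CPM scale these were 0.746, 0.540 and 0.374 in *tm1630* and 0.642, 2.86 and 13.1 in N2. N2 replicate 1 lay among the mutants, and replicate 3 alone held most of the N2 reads. The log2 fold change was -3.32 (SE 1.00, adjusted p = 0.0389), and without N2 replicate 3 it was -1.67 (adjusted p = 0.0803). The call was also lost without N2 replicate 2 (adjusted p = 0.0624) or without *tm1630* replicate 1, 2 or 3 (adjusted p = 0.117, 0.128 and 0.132), so that only the fit without N2 replicate 1 kept it.

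In *zr2012* the *sma-1* row had 109, 181 and 164 reads, against 24, 10 and 162 in N2. On the CPM scale these were 4.68, 5.88 and 6.01 in *zr2012* and 0.807, 0.435 and 3.89 in N2. The mutants were higher without overlap, with N2 replicate 3 close to them, and the test was not passed (1.65, SE 0.73, adjusted p = 0.185). Without N2 replicate 3 the change was 3.10 (adjusted p = 1.17e-06), in the fit that rests on N2 replicates 1 and 2 and called 10468 genes.

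*let-502* encodes a kinase that promotes myosin contraction in the epidermis. It measured 256, 193 and 232 CPM in *tm1630* and 144, 382 and 235 CPM in N2, with the mutants inside the N2 range. The log2 fold change was -0.16 (SE 0.40, adjusted p = 0.779), and it was 0.25 without N2 replicate 2 (adjusted p = 0.627), so no direction can be given. In *zr2012* it measured 347, 372 and 341 CPM, against 197, 196 and 417 CPM in N2. N2 replicate 3 lay above all mutant libraries and the other N2 libraries below them (log2 fold change 0.39, SE 0.30, adjusted p = 0.414). Without that library the change was 0.85 (adjusted p = 8.68e-07), which again rests on N2 replicates 1 and 2.

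**Figure D3:**
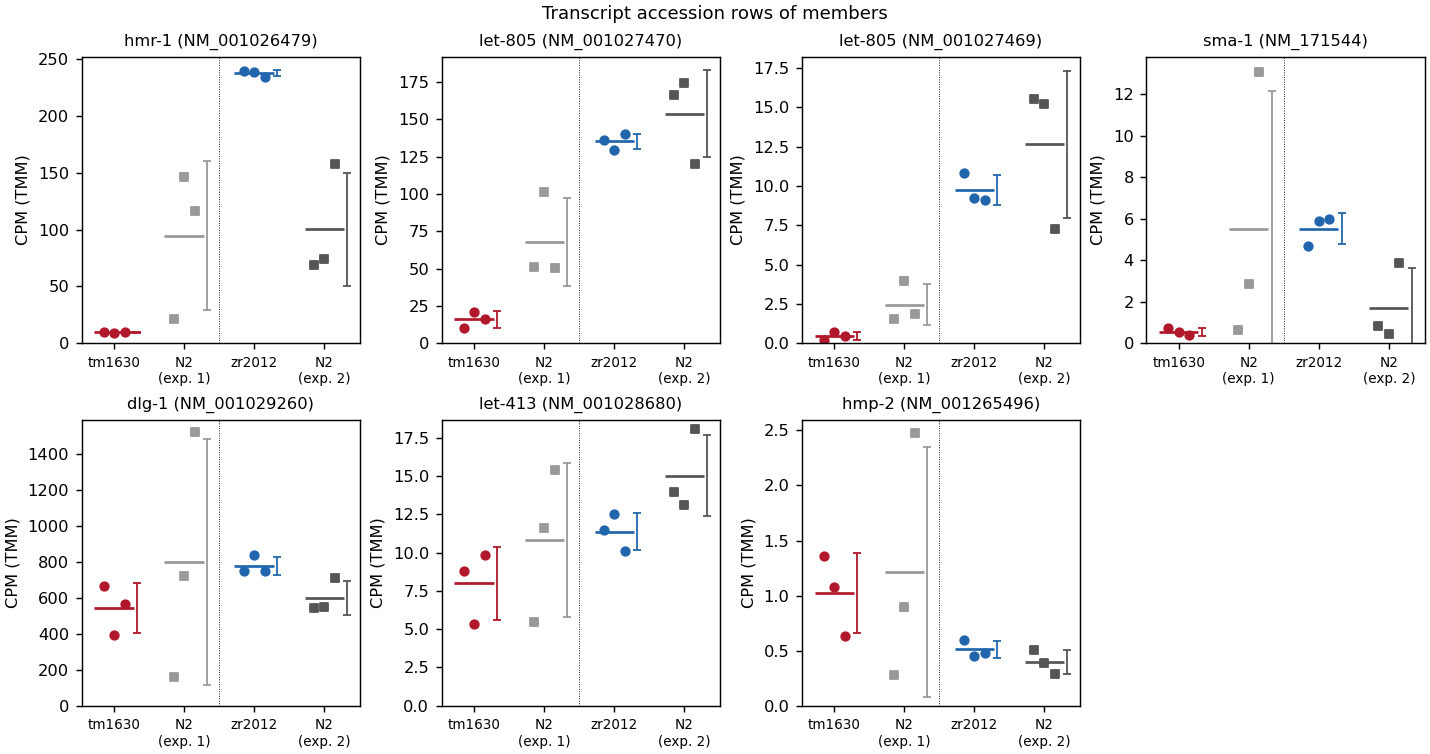
Level in CPM (TMM scaling within each experiment) of the 7 accession rows with enough reads for a test, per library, with the group mean (line) and SD (bar, ending at the axis where it would go below 0; n = 3). The *hmr-1* row lies at 9.31 to 10.05 CPM in *tm1630* and at 235 to 240 CPM in *zr2012*, outside the N2 range of each experiment.

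Counted together, 1 of the 3 testable symbol rows was called lower in *tm1630*, with a median log2 fold change of -0.59, against -0.21 for all genes tested. Of the 7 testable accession rows, which stand for 6 genes, 4 were called lower, with a median of -2.09, where 16.0% of all genes tested were called lower. That count was 0, 1 and 0 without *tm1630* replicate 1, 2 or 3, 4, 2 and 3 without N2 replicate 1, 2 or 3. In *zr2012* edgeR's quasi-likelihood test called 0 of the 3 symbol rows and 0 of the 7 accession rows, where 10.4% of all genes tested were called, 4.74% lower and 5.71% higher. At an unadjusted p under 0.05 these counts were 1 symbol row and 2 accession rows, where 5129 of all 16892 genes tested passed. The DESeq2 Wald test called 1 of each kind, and 3252 genes over the whole table. The medians were 0.29 and 0.38 in *zr2012*, against -0.082 for all genes tested.

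**Figure D4:**
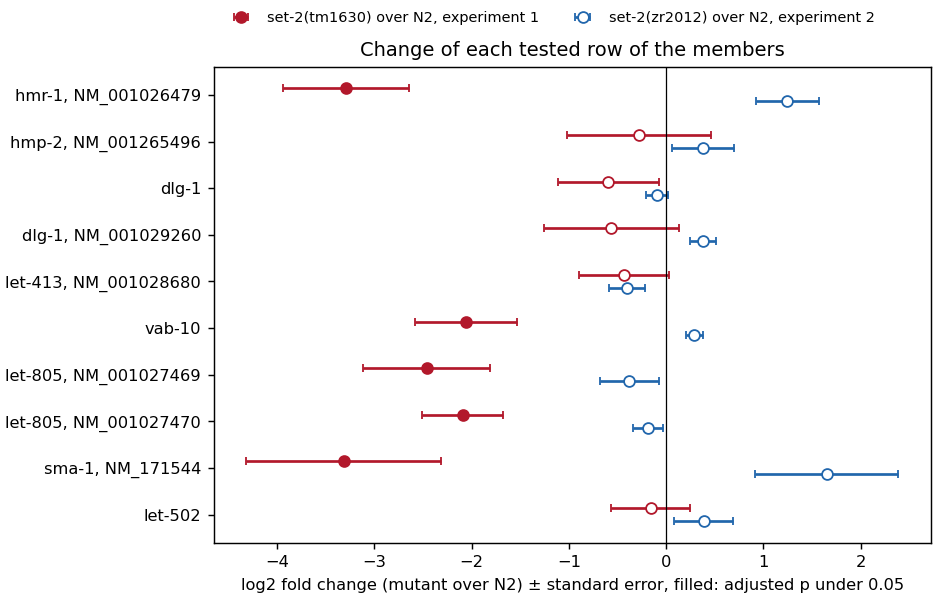
Log2 fold change of each tested row of the 10 genes over N2 of the same experiment, with its standard error, in *tm1630* (upper of each pair) and *zr2012*. Filled points have an adjusted p under 0.05: 5 rows in *tm1630* (*hmr-1*, *vab-10*, both *let-805* rows and *sma-1*, at -3.32 to -2.06) and none in *zr2012*.

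Whether the alleles differed was tested as the *tm1630* change minus the *zr2012* change over all 12 libraries, with the N2 libraries of each experiment as its baseline. In this comparison 23.4% of the 17903 genes tested were called, 11.7% with the lower change in *tm1630* and 11.8% with the higher. *vab-10* was called, with a difference of -2.34 on the log2 scale (SE 0.56, adjusted p = 0.0129). So were the *hmr-1* row (-4.54, SE 0.77, adjusted p = 0.00333) and the main *let-805* row (-1.89, SE 0.46, adjusted p = 0.0140). Those 3 calls held in every fit that left out 1 library. The second *let-805* row (-2.09, SE 0.70, adjusted p = 0.0472) lost its call in 9 of the 12 such fits (adjusted p up to 0.121). The *sma-1* row (-4.99, SE 1.33, adjusted p = 0.0200) lost it without *tm1630* replicate 3 (adjusted p = 0.0535) and with a block for the replicate number (-4.69, adjusted p = 0.0613). The difference did not pass the test for *dlg-1* (-0.50, SE 0.59, adjusted p = 0.564), *let-502* (-0.54, SE 0.52, adjusted p = 0.466) and the *let-413* accession row (-0.027, SE 0.51, adjusted p = 0.975). Allele and experiment cannot be told apart in this design.

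The N2 groups of the experiments were also compared with each other. The second *let-805* row was higher in N2 of experiment 2 than in N2 of experiment 1 by 2.23 on the log2 scale (SE 0.49, adjusted p = 0.0216). It was the only one of the rows tested here that was called, beside 8.57% of all genes called, 4.55% higher and 4.02% lower. That call was lost without N2 replicate 1 or 2 of experiment 2 (adjusted p = 0.0737 and 0.0729) and with a block for the replicate number (3.32, adjusted p = 0.210). With its accession rows summed, *let-805* was not called (1.11, adjusted p = 0.0559). The main row differed by 1.05 (SE 0.33, adjusted p = 0.0621), and *vab-10* by 0.69 (SE 0.39, adjusted p = 0.267).

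Ratios of genes within a library do not depend on how libraries are scaled. The ratios first chosen (*hmp-1* over *hmp-2*, *hmr-1* over *hmp-2*, *dlg-1* over *ajm-1*, *let-805* over *vab-10* and *let-502* over *sma-1*) each needed a symbol row with at most 1 read per library and could not be computed, so others were formed after the counts had been seen. With 3 libraries against 3, the exact two-sided permutation test cannot give less than p = 0.1. *dlg-1* over *vab-10* was -2.58, -2.75 and -2.52 on the log2 scale in *tm1630*, against -4.39, -4.35 and -3.83 in N2. The mutant mean was 1.58 above the N2 mean, without overlap (exact p = 0.1). *let-502* over *vab-10* was 1.82 above N2 in *tm1630*, also without overlap (exact p = 0.1). The level of *vab-10*, the denominator of both ratios, already separated the libraries by genotype, so these ratios are no further evidence of a difference. The main *let-805* row over *vab-10* differed by -0.19 (exact p = 0.8), with overlap.

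In *zr2012*, *dlg-1* over *vab-10* differed from N2 by -0.38 without overlap (exact p = 0.1), and *let-502* over *vab-10* overlapped (0.19, exact p = 0.6). The main *let-805* row over *vab-10* differed from N2 by -0.46 there, without overlap (exact p = 0.1). The level of *vab-10* alone also separated these libraries by genotype, so the ratios over it are no further evidence of a difference. The symbol row of *dlg-1* over its accession row was -0.21 in *tm1630* relative to N2 (exact p = 0.7) and -0.48 in *zr2012* (exact p = 0.1, without overlap). In *zr2012* that accession row alone separated the libraries too, so the same limit holds for this ratio.

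The partners of these genes were examined through 6 lists with 64 genes in all, of which 10 were listed at 0 in every library. Partner genes were read under their names only, without accession rows, so that a 0 does not show that a gene was silent. In *tm1630*, 14 of the 51 genes tested were lower and 1 was higher, with a median log2 fold change of -1.01. Over all genes tested, 16.0% were lower and 14.4% higher in *tm1630*, with a median of -0.21. In *zr2012*, 2 of 52 were lower and 5 higher, with a median of 0.10, where 4.74% of all genes tested were lower and 5.71% higher, with a median of -0.082. The counts of the single lists are to be read against the same shares. The *tm1630* counts changed when single libraries were left out. Without N2 replicate 1, 26 were lower, and without N2 replicate 2, 3 were lower. Over the whole table those fits called 2522 and 1409 genes lower, against 2609 with all libraries. Without any 1 of the *tm1630* replicates, 0 were called either way. Over the whole table those fits called only 747, 938 and 916 genes, against 4961 with all libraries. The loss of calls there was thus not particular to these lists. In *zr2012*, 27 were higher and 8 lower without N2 replicate 3. That fit called 5082 genes higher and 5386 lower over the whole table, against 965 and 800 with all libraries. No other fit that left out 1 library called a partner gene higher. Each of those other fits also called far fewer genes higher over the whole table than the fit with all libraries.

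Of the hemidesmosome genes, 3 of 8 tested were lower in *tm1630* (median -1.28). *mup-4*, the gene of an apical receptor that ties the epidermis to the cuticle, measured 102, 150 and 116 CPM in *tm1630* and 304, 523 and 541 CPM in N2, without overlap (log2 fold change -1.89, SE 0.37, adjusted p = 0.0110). *mua-3*, which encodes a related receptor, changed as much (-1.89, adjusted p = 0.0429) but overlapped N2. *ifa-3*, the gene of an epidermal intermediate filament protein, was the third (-1.48, adjusted p = 0.0378). In *zr2012* 1 of 9 was higher (median 0.41): *vab-19*, the gene of an ankyrin-repeat protein of the attachments, with 274, 286 and 274 CPM in the mutant and 204, 212 and 197 CPM in N2 (0.45, adjusted p = 0.0286).

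Of the junction partners, 3 of 10 tested were lower in *tm1630* (median -0.91), and *zoo-1*, *afd-1*, *srgp-1* and *wve-1* were at 0 in every library. *jac-1*, whose protein binds the cadherin tail, measured 78.5, 71.5 and 83.8 CPM in *tm1630* and 108, 321 and 193 CPM in N2, without overlap (-1.41, SE 0.42, adjusted p = 0.0362). *wsp-1*, the gene of the actin regulator WASP (-1.78, adjusted p = 0.0272), and *sax-7*, the gene of an L1-type adhesion protein that acts beside HMR-1 (-1.26, adjusted p = 0.0496), were the others. Their median in *zr2012* was 0.028. Among polarity genes 1 of 9 was lower in *tm1630* (median -0.10). This was *eat-20*, the gene of a Crumbs-like protein (-1.29, adjusted p = 0.0407), which was also lower in *zr2012*, with 131, 113 and 122 CPM in the mutant and 175, 178 and 173 CPM in N2 (-0.52, SE 0.094, adjusted p = 0.0251).

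Of the actomyosin genes, 2 of 12 tested were lower and 1 was higher in *tm1630* (median -0.70). *rga-2* was at -1.998 (adjusted p = 0.0328), and *fhod-1*, the gene of a formin that assembles actin, at -1.71 (adjusted p = 0.0200). *fem-2*, which encodes a protein phosphatase that acts in elongation in parallel to *let-502* and is better known from sex determination, was higher, with 97.1, 111 and 91.0 CPM in *tm1630* and 38.4, 31.5 and 40.4 CPM in N2 (1.44, SE 0.27, adjusted p = 0.0100). In *zr2012* 2 of 12 were higher (median 0.13), *rhgf-2* (0.74, adjusted p = 0.0260), and *fhod-1* (0.46, adjusted p = 0.0299). The spectrin cytoskeleton list had 2 of 5 lower in *tm1630* (median -1.38), *add-1*, which encodes adducin (-1.68, adjusted p = 0.0129), and *unc-44*, which encodes ankyrin (-1.38, adjusted p = 0.0487). *unc-44* was the 1 of 5 that was higher in *zr2012* (median 0.40), with 3011, 2943 and 3036 CPM in the mutant and 2208, 2269 and 2347 CPM in N2 (0.40, adjusted p = 0.0369).

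Of the transcription factors of the epidermis, 3 of 7 tested were lower in *tm1630* (median -1.13). *elt-1*, *elt-3* and *nhr-23* were at 0 under their symbols, which does not show that they were silent. *grh-1*, the Grainyhead gene of epidermal and cuticle formation, measured 34.4, 36.5 and 43.5 CPM in *tm1630* and 239, 311 and 60.4 CPM in N2, without overlap (-2.41, SE 0.56, adjusted p = 0.0181). *blmp-1*, the gene of a zinc-finger factor (-1.48, adjusted p = 0.0245), and *elt-6*, a GATA factor gene (-1.31, adjusted p = 0.0329), were also lower. In *zr2012* *grh-1* was higher, with 403, 410 and 414 CPM in the mutant and 257, 257 and 289 CPM in N2 (0.61, SE 0.092, adjusted p = 0.0171). *lin-26*, which encodes the zinc-finger protein required for epidermal fate, was lower there, with 84.4, 73.4 and 77.7 CPM in *zr2012* and 227, 224 and 179 CPM in N2 (-1.42, SE 0.13, adjusted p = 0.00578).

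**Figure D5:**
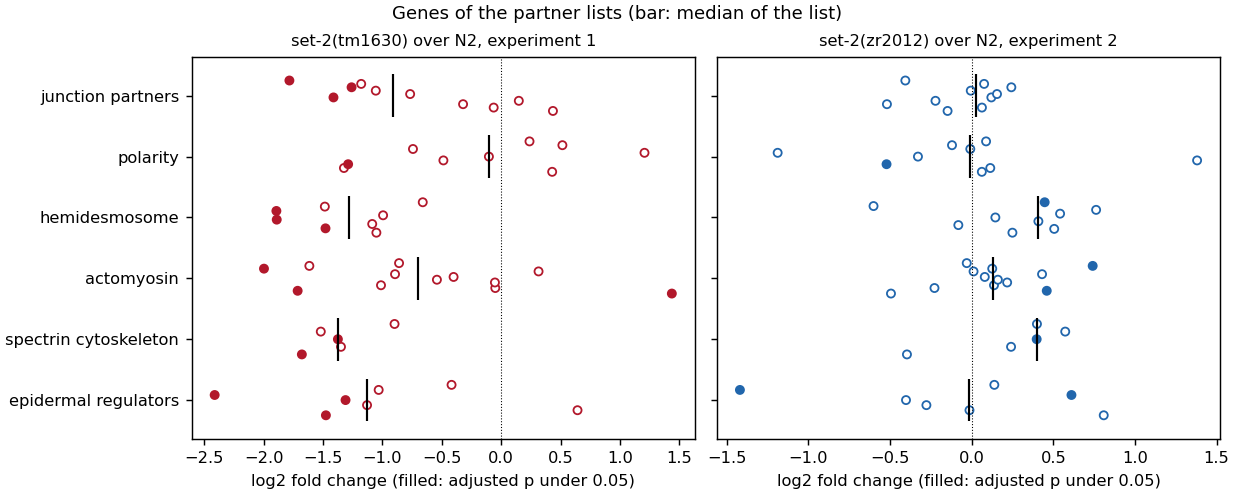
Log2 fold change of each tested gene of the 6 partner lists over N2 of the same experiment, in *tm1630* (left) and *zr2012* (right). Filled points have an adjusted p under 0.05 and the bar is the list's median, which runs from -1.38 to -0.10 in *tm1630* and from -0.014 to 0.41 in *zr2012*.

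The mean profile of *vab-10*, *dlg-1* and *let-502* over the 12 libraries, each library relative to the N2 mean of its experiment, was compared with 11699 other genes. The genes most like it were *crb-1*, which encodes a Crumbs homologue (Pearson r = 0.991), *spc-1*, the gene of α-spectrin (0.990), *clr-1*, a receptor phosphatase gene (0.989), *ikb-1* (0.988) and *cdh-12*, a cadherin-family gene (0.981). These values are a description over 12 libraries that share their depth and their N2 baseline.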

How the data were processed

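The 12 libraries were grouped and numbered by their titles (the description of *tm1630* replicate 3 also names replicate 1, so that its number is less certain than its group), and mutants were compared with N2 of the same experiment, 3 against 3. The authors trimmed the reads, mapped them to WS220 (ce10) with 2 mismatches allowed and deposited whole-number read counts per feature name, without normalization. The submitters' processing notes name Trimmomatic 0.36.0, HTSeq 0.9.1 and DESeq2 2.1.8.3. The aligner, the annotation, the handling of overlapping features and the strand setting are not given in the sources used here.

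The tests were made with edgeR 4.0.16 and limma 3.58.1 in R 4.3.3. Rows with at least 10 counts in at least 3 libraries of a fit entered it. After TMM scaling, the quasi-likelihood test of edgeR was used on all these rows without blocking (two-sided). P-values were adjusted by Benjamini-Hochberg, and an adjusted p under 0.05 was called. SE is an approximate standard error of the log2 fold change. It was computed from edgeR's test, as the absolute log2 fold change divided by the square root of the F statistic. The difference between alleles and between N2 groups was fitted on 12 libraries. Accession rows were matched to genes through the RefSeq table of WBcel235 by accession, which matched 2863 of 3837. Coordinates were not used, since that build differs from the files'. Ratios were tested by an exact permutation test over libraries. Partner genes were named by a rule: up to 3 per list, direction and allele with the largest change among those called, with a mean of at least 100 counts. The 5 genes most like the profile were ranked on log2 CPM with a pseudocount of 0.5. The genes, lists and rules were chosen with earlier results of these data known.

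Alternatives were DESeq2's size factors, the DESeq2 Wald test (DESeq2 1.42.0), no count filter (at least 1 count), 10 or more counts in every library, a block for the replicate number, a fit of all 12 libraries, each library left out and, added after the counts were seen, accession rows summed into their gene. A floor of 3 counts is 0.0565 to 0.205 CPM over the libraries, which covers counting error only, since without molecular identifiers reads can be copies of 1 molecule. A sequence of these genes was not used here.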

Additional observations from a re-analysis of the deposited data

Results flagged for a closer look

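Of the rows of these 10 genes, 5 differed between the alleles by the test of the difference itself (the *tm1630* change minus the *zr2012* change, log2 scale, edgeR's quasi-likelihood test over 12 libraries). The difference was -2.34 for *vab-10* (adjusted p = 0.0129). It was -4.54 for the *hmr-1* row NM_001026479 (adjusted p = 0.00333). It was -1.89 for the *let-805* row NM_001027470 (adjusted p = 0.0140) and -2.09 for NM_001027469 (adjusted p = 0.0472). It was -4.99 for the *sma-1* row NM_171544 (adjusted p = 0.0200, and 0.0613 with a block for the replicate number). Each allele was measured in 1 experiment, so that allele and experiment cannot be told apart. Among all genes tested, 11.7% were called in the same direction.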

How the results depend on the processing

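The 1 symbol row called lower in *tm1630* (*vab-10*) stayed at a count of 1 under each other setting except the fits that left out 1 library (0 to 2) and the sum of accession rows into their gene, which gave 4 genes (*hmr-1*, *let-805*, *sma-1* and *vab-10*). The count higher in *zr2012* was 0, 1 with the DESeq2 Wald test and 0 to 2 with 1 library left out. The count lower in N2 of experiment 2 than of experiment 1 was 0, and 0 to 1 with 1 library left out. The count whose change differed between alleles was 1, 4 with accession rows summed, and 1 to 2 with 1 library left out. The count of accession rows lower in *tm1630* was 4, 2 with 10 counts in every library, 3 with the replicate block and 0 to 4 with 1 library left out. With 10 counts in every library, the *sma-1* row (8 reads in *tm1630* replicate 2) was not tested. Nor was the second *let-805* row (7 reads in *tm1630* replicate 1). Of the partner genes, 14 were lower in *tm1630*, 5 with the replicate block, 28 in the fit of all 12 libraries and 0 to 26 with 1 library left out. The 1 higher in *tm1630* became 2 with the DESeq2 Wald test, with 10 counts in every library and in the fit of all 12 libraries, and 0 to 1 with 1 library left out. In *zr2012* the 2 lower were 0 with the replicate block, 1 in the fit of all 12 libraries and 0 to 8 with 1 library left out. The 5 higher in *zr2012* were 8 with the DESeq2 Wald test, 2 with no count filter, 0 with the replicate block, 0 in the fit of all 12 libraries and 0 to 27 with 1 library left out.

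Signs turned in 6 fits, none of them of a called row. They were *dlg-1* in *zr2012* with its accession row summed in (0.33), *let-502* in *tm1630* without N2 replicate 2 (-0.45 to 0.25 with 1 library left out), the *dlg-1* row NM_001029260 in *tm1630* without N2 replicate 3 (-1.04 to 0.30), and the *hmp-2* row NM_001265496 in *tm1630* with the replicate block (0.12) and without N2 replicate 3 or *tm1630* replicate 3 (-0.72 to 0.75). The causes were not tested.

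Same-numbered libraries did not deviate together (mean correlation of their deviations -0.144 in experiment 1 and -0.135 in experiment 2). Deviations from a mean of 3 libraries are tied to each other, so these values cannot exclude that the numbers pair the libraries. With a block for the replicate number, the *vab-10* change in *tm1630* was -1.88 (adjusted p = 0.0463), the *hmr-1* row was -2.93 (adjusted p = 0.00636), and the *sma-1* row lost its call (-2.46, adjusted p = 0.0891). Over all genes the block called 3470 against 4961 in *tm1630* and 40 against 1765 in *zr2012*. The fit of all 12 libraries called 8124 and 248. The DESeq2 Wald test called 6354 and 3252. Between alleles 4198 genes were called and 1858 with the block. Between N2 groups 1535 were called, 3178 with the DESeq2 Wald test and 2 with the block.

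The results for *hmp-1*, *hmp-2* and *sma-1* are limited by the few reads in their rows, the cause of which was not tested. The spread of N2 limits both experiments. The totals of genes split over several rows were not measured, and *ajm-1* was not measured at all.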
